A study of Mus musculus with 16 samples.

Results

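The genes described here encode the nuclear subunits of the mitochondrial respiratory chain, complexes I to V, in mouse stomach. Members were chosen by gene symbol: the Nduf, Sdh, Uqcr, Cox4 to Cox8 and Atp5 families, without pseudogene and Rik symbols, with at least 10 counts in at least 4 libraries. Of 24964 genes in the count table, 83 matched the symbols and 79 met the count rule, all of which were tested. There were 36 members in complex I, 4 in complex II, 8 in complex III, 15 in complex IV and 16 in complex V. The symbols also take in Cox7a2l, a factor that joins complexes III and IV into supercomplexes, and Ndufa4, which is now counted with complex IV but is grouped here by its symbol. Nuclear subunits with other symbols, such as Cyc1 and Ndufab1, are described separately below. The 13 subunits encoded by mitochondrial DNA were not analysed here.

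RNA was sequenced from 16 stomach samples of female mice aged 8 weeks, 4 in each of 4 groups. Each sample was a 4 mm biopsy from the lesser curvature of the gastric corpus, the acid-secreting part of the stomach. WT mice were C57BL/6. TTP mice were congenic C57BL/6 of the genotype TTPΔARE, in which an AU-rich element is deleted from the gene of tristetraprolin (TTP, gene Zfp36), a protein that binds AU-rich elements in messenger RNA and speeds its decay. Animals of groups WT-A and TTP-A had gastric inflammation induced by adrenalectomy (ADX), the removal of the adrenal glands. For WT-S and TTP-S the treatment label reads spasmolytic polypeptide-expressing metaplasia (SPEM), which is a change of corpus glands towards a mucous, antrum-like lineage. The labels explain neither the letter S nor whether these mice had surgery, and S is kept as a plain group name. Markers of mucous neck cells, given below, had lower mean sums in the S groups than in the A groups. The SPEM label is therefore not read here as a description of the S tissue. The labels do not say whether each library came from a separate animal, so p-values measure only the spread between these samples.

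The respiratory chain sits in the inner mitochondrial membrane. Complex I oxidises NADH and complex II oxidises succinate, complex III passes the electrons to cytochrome c, complex IV reduces oxygen, and complex V, the ATP synthase, uses the proton gradient to make ATP. Acid-secreting parietal cells of the corpus are packed with mitochondria, since the H+/K+-ATPase consumes ATP. In whole biopsies, fewer cells of a type and less RNA per cell cannot be told apart.

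Transcription of many of these genes is known to involve NRF1, which binds a GC-rich palindrome. RefSeq promoter windows (GRCm38.p6, 250 bases before to 50 bases after the start site) were matched for 64 of the 79 members, and motifs were searched on both strands. The NRF1 letters GCGCATGCG, 9 bases of the palindrome, were in the windows of 8 of 64 members (12.5%) and of 3.58% of 11853 other tested genes. The YY1 letters AAGATGGCG were in 7 of 64 (10.9%) and 3.05%, and the estrogen-related receptor letters TCAAGGTCA were in 2 (3.12%, Atp5g3 and Sdhd) and 0.346%. By contrast, the GABP letters CCGGAAGTG were in 2 (3.12%) and 4.34%, and the SP1 letters GGGGCGGGG in 10 (15.6%) and 23.3%. Such a match is a description of the sequence and not a measured binding site.

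In 6 of the 8 members with the NRF1 letters the match lies before the start site. These stretches are shown 5′ to 3′ on the gene's strand with the match in capitals, as read on that strand, so that the letters shared by members of 3 complexes can be compared.
Ndufa8, complex I, chr2:36049339-36049377, minus strand: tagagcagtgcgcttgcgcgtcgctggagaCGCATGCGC
Ndufa11, complex I, chr17:56717672-56717740, plus strand: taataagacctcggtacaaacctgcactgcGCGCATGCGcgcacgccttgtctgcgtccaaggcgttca
Cox6a1, complex IV, chr5:115349082-115349150, minus strand: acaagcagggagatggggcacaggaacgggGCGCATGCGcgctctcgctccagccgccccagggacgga
Atp5g2, complex V, chr15:102671051-102671119, minus strand: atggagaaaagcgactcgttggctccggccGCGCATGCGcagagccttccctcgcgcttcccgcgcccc
Atp5k, complex V, chr5:108434411-108434479, minus strand: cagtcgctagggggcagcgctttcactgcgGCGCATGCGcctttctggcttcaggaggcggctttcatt
Atp5l, complex V, chr9:44920945-44920992, minus strand: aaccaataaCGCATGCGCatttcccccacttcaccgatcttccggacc
In Ndufa11, Cox6a1, Atp5g2 and Atp5k the base after the capitals completes the palindrome. The matches end 0 bases (Ndufa8) to 232 bases (Atp5l) before the start site.

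Libraries held 17453930 to 25849472 counts, and 17607 to 18377 genes had at least 1 count. Unless stated, CPM values are read counts divided by library totals that were scaled by the trimmed mean of M-values (TMM). The libraries WT-A 3 and WT-A 4 stood apart. Across 11546 genes, their deviation from the median over all 16 libraries followed transcript GC content, with Spearman's rho of 0.72 and 0.75, against at most 0.30 in size in the other 14 libraries. Counts of called members that rest on WT-A are therefore given with and without this pair; without it WT-A has 2 libraries. The scaling also bears on every WT-A value. TMM lowered all WT-A values by 0.15 on the log2 scale relative to WT-S, compared with unscaled totals. Chief cell markers, led by pepsinogen, took 11.8% ± 2.68 (SD, n = 4) of counts in WT-S and 7.27% ± 2.20 in WT-A, and their part in the scaling was not tested.

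The members together took 1.34% to 1.57% of the counts of a library. Per kilobase of transcript, the level in WT-S was highest for the catalytic subunits of the ATP synthase and for small and structural subunits of complex IV. Atp5b, the catalytic beta subunit, stood at 926 CPM per kilobase, followed by Cox6a1 at 699, the alpha subunit Atp5a1 at 665 and Cox4i1 at 650. On the same scale, the median member stood at 249 in complex V, 242 in complex III, 213 in complex IV, 126 in complex II and 82.2 in complex I. Complex V thus had the highest median and complex I the lowest, while single members within complex I spanned 3.2 to 368 CPM per kilobase.

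**Figure D1:**
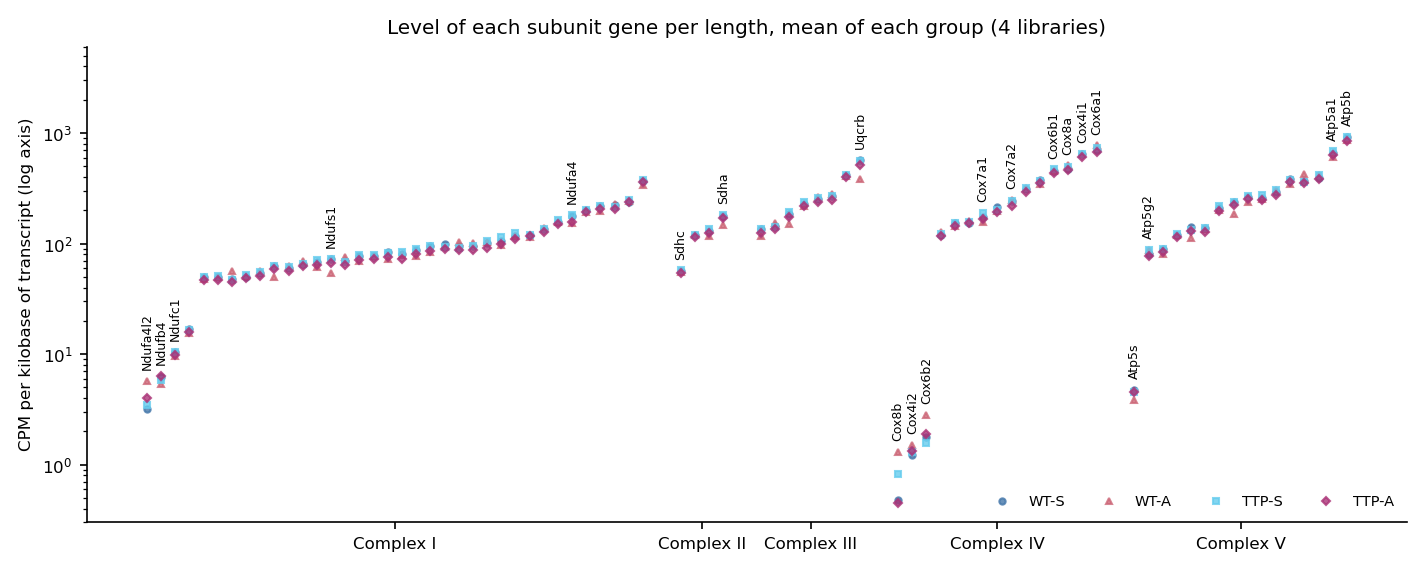
Mean level of each of the 79 members in CPM per kilobase of transcript (log axis), by complex and ordered by level within a complex; each marker is the mean of 4 libraries of a group. Most members of complexes II, III and V lie between 50 and 1000, and the complex IV isoforms Cox4i2, Cox6b2 and Cox8b lie between 0.445 and 2.80, whereas Cox7a1 stands at 173 in WT-S.

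Several complex IV subunits exist as ubiquitous and tissue-restricted isoforms, and the corpus used the ubiquitous or liver-type ones. Per kilobase of transcript, the group means of Cox4i1 were 608 to 650 CPM, whereas its hypoxia-responsive and lung-type form Cox4i2 was at 1.21 to 1.51. Cox6b1 was at 439 to 468 CPM per kilobase in group means, and its testis form Cox6b2 at 1.57 to 2.80. Cox8a was at 460.0 to 509 CPM per kilobase, and the muscle form Cox8b at 0.445 to 1.31. Ndufa4 was at 153 to 182 CPM per kilobase, and its relative Ndufa4l2, a hypoxia-induced gene, at 3.2 to 5.73. The exception was Cox7a1, the heart and muscle form, which reached 173 CPM per kilobase in WT-S against 243 for the ubiquitous Cox7a2. In CPM, Cox7a1 measured 65.7, 72.8, 70.8 and 62.6 in the WT-S libraries and 61.9, 50.2, 61.2 and 72.5 in the WT-A libraries. TTP-S gave 73.1, 81.7, 70.8 and 73.0, and TTP-A gave 64.1, 71.6, 67.3 and 57.3. The groups overlapped within each genotype, and Cox7a1 was called in none of the contrasts. Smooth muscle markers are abundant in these biopsies, at 6119 to 9982 CPM in sum over 8 genes, so the cell type that holds Cox7a1 cannot be told from these data.

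The 4 matching symbols that failed the count rule were Cox6a2 (8 counts over all 16 libraries), Cox7b2 (1 count), Cox8c (0) and Ndufs5 (0). A count of 0 allows up to 3 counts, or 0.116 to 0.172 CPM depending on the library. For Ndufs5, a subunit needed in every complex I, 41.2% of all 50-base words of the reference transcript also occur in the transcript of BC002163, a near-identical copy that was listed with 26 to 56 counts. The count of Ndufs5 is therefore uncertain. Shared words also make other counts uncertain: 100% of the words of Atp5g2, 84.8% of Atp5l, 65.996% of Atp5g1, 53.0% of Cox7c, 50.5% of Atp5h, 43.4% of Uqcrb, 39.7% of Ndufs3 and 38.7% of Atp5f1 occur in other transcripts. Just inside the rule, Cox8b had 10 counts in 5 libraries only.

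The first comparison was between the adrenalectomy-labelled group WT-A and the SPEM-labelled group WT-S of wild-type mice. The summed level of the 79 members was 14395, 14495, 14198 and 14593 CPM in WT-S, and 12775, 12420, 13538 and 15670 CPM in WT-A. The 3 lowest of these 8 libraries were WT-A, and the highest was WT-A 4, so the groups overlapped. The mean was 14420 ± 169 in WT-S and 13601 ± 1456 in WT-A (SD, n = 4), a log2 ratio of -0.08 that turned to 0.06 with unscaled CPM.

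Complex II summed to 992 ± 27.5 CPM in WT-S and 885 ± 68.2 in WT-A, and complex III to 1724 ± 22.9 and 1528 ± 113. In complex III all 4 WT-A libraries (1445 to 1686) lay below all WT-S libraries (1694 to 1749), whereas in complex II WT-A 4 reached the WT-S range. With unscaled CPM the complex III sums overlapped, at 1572 to 1687 in WT-A and 1632 to 1766 in WT-S. Complexes I, IV and V overlapped between the groups, at 3266 ± 57.0 and 3087 ± 354 for complex I, 2636 ± 54.1 and 2665 ± 300 for complex IV, and 5802 ± 49.0 and 5435 ± 643 for complex V.

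**Figure D2:**
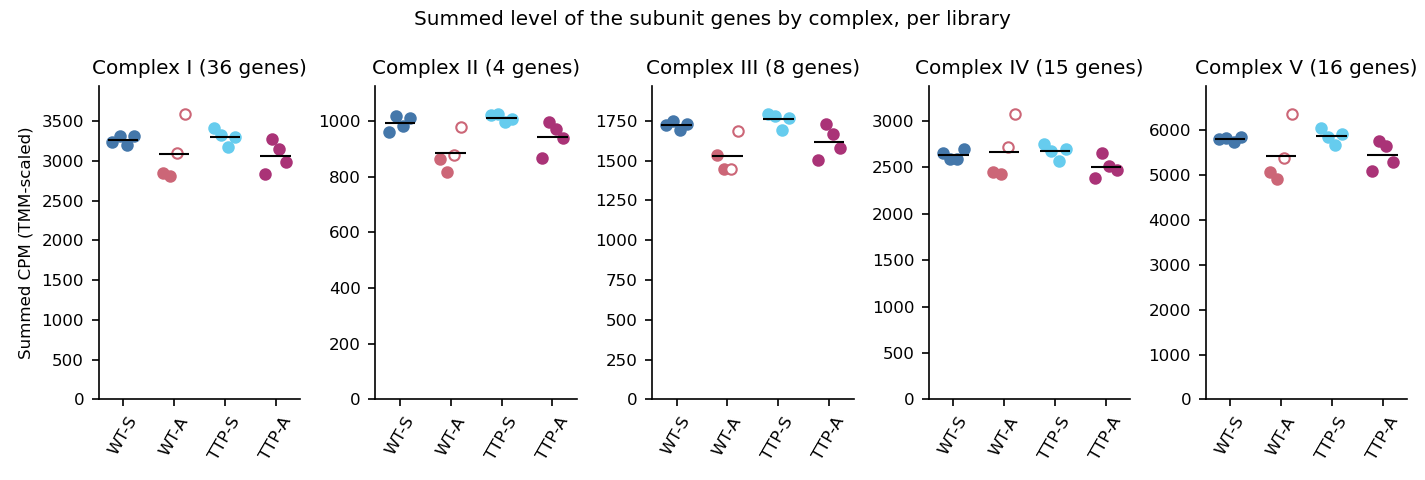
Summed TMM-scaled CPM of the members of each complex in each library (points) with the group mean (bars); open points are WT-A 3 and WT-A 4. WT-A 1 and WT-A 2 lie below all WT-S libraries in all 5 complexes, whereas WT-A 4 lies above them in complexes I, IV and V.

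Gene by gene, 10 of 79 members (12.7%) were called lower in WT-A than in WT-S and none higher, by edgeR's quasi-likelihood test at a Benjamini-Hochberg adjusted p under 0.05. Over all 15385 genes tested, 18.8% were called, 8.99% lower. The median member stood at -0.03 on the log2 scale, with 30 members above 0 and 49 below, and the median of all genes was 0.01. Values of the 2 groups did not overlap for 13 members, against 17.7% of all genes. The share of members called was thus under that of all genes in either direction and over that of all genes called lower, and the share without overlap was near that of all genes.

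Of the 36 complex I members, 3 fell. Ndufs1, the largest subunit, which carries iron-sulfur clusters of the electron path (chr1:63143596-63176833), measured 181, 197, 191 and 189 CPM in WT-S and 150, 142, 126 and 142 in WT-A. The groups did not overlap, and the log2 difference was -0.44 ± 0.06 (SE, adjusted p = 0.00100). Ndufv2, an iron-sulfur subunit of the NADH-oxidising module (chr17:66078638-66101559), measured 113, 109, 102 and 105 CPM in WT-S and 95.7, 90.7, 67.6 and 85.7 in WT-A, a difference of -0.34 ± 0.09 (adjusted p = 0.0178). Its lowest value was WT-A 3. The call for Ndufv2 was lost without WT-A 3 and WT-A 4 (-0.20, adjusted p = 0.0743), and offsets on transcript GC content took the difference to 0.0058 (adjusted p = 0.975). Ndufa5, an accessory subunit (chr6:24518666-24528013), fell by 0.22 on the log2 scale (adjusted p = 0.0232), from 70.6 to 76.0 CPM in WT-S to 57.6 to 69.0 in WT-A, but was not called without the pair (-0.16, adjusted p = 0.123). Of the other core subunits of complex I, Ndufv1, the NADH-binding subunit, stood at -0.11 (adjusted p = 0.361), and Ndufs3 at -0.17 (adjusted p = 0.0621). Ndufs8, which carries the iron-sulfur clusters next to the membrane arm, measured 80.2, 78.0, 74.1 and 72.6 CPM in WT-S and 62.9, 64.2, 78.1 and 99.6 in WT-A, a difference of -0.00 (adjusted p = 0.996) that became -0.26 without the pair (adjusted p = 0.0215). Its WT-A libraries lay on both sides of WT-S, with WT-A 1 and 2 lowest and WT-A 4 highest. Ndufs7, a core subunit near the quinone site (0.08, adjusted p = 0.651), had WT-A 4 as its highest library too.

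In complex II, whose 4 subunits link the chain to the tricarboxylic acid cycle, only Sdha passed. Sdha, the succinate-oxidising flavoprotein (chr13:74322254-74350280), measured 485, 534, 505 and 533 CPM in WT-S and 434, 403, 417 and 461 in WT-A, a difference of -0.26 ± 0.06 (adjusted p = 0.00716). All WT-A libraries lay below all WT-S libraries. The other 3 subunits gave -0.16 for the iron-sulfur subunit Sdhb (adjusted p = 0.147), -0.05 for the membrane anchor Sdhc (adjusted p = 0.592) and 0.00 for the anchor Sdhd (adjusted p = 0.996).

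In complex III, 3 of 8 members fell. Uqcrc2, a core subunit (chr7:120635176-120659524), measured 350.5, 370, 330 and 346 CPM in WT-S and 307, 269, 269 and 296 in WT-A, a difference of -0.29 ± 0.06 (adjusted p = 0.00649). With GC offsets it was -0.07 (adjusted p = 0.611). Uqcrfs1, the Rieske iron-sulfur protein (chr13:30540308-30545362), fell by 0.21 on the log2 scale (adjusted p = 0.0446), with WT-A 4 at 181 CPM inside the WT-S range of 177 to 187. With GC offsets it was not called (-0.14, adjusted p = 0.174). Uqcrb, the subunit near the ubiquinone site (chr13:66900617-66905378), showed the lowest fitted value of all members, -0.58 ± 0.17 (adjusted p = 0.0278). Its WT-S values were 302, 324, 298 and 296 CPM, and its WT-A values were 284 and 245 in WT-A 1 and 2 but 142 and 146 in WT-A 3 and 4. Without that pair Uqcrb stood at -0.20 (adjusted p = 0.107).

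No complex IV member was called by this test. An unadjusted p under 0.05 was found for 3 of 15 (Cox6b2, Cox6c and Cox8b), against 5620 of all 15385 genes. The lowest adjusted p in the complex was that of Cox6c, at 189, 196, 188 and 189 CPM in WT-S and 177, 176, 168 and 176 in WT-A, a difference of -0.13 ± 0.05 (adjusted p = 0.0730). These values did not overlap, but the difference was under that of any called member. Cox4i1, the largest nuclear subunit, measured 484, 472, 485 and 497 CPM in WT-S and 424, 419, 489 and 580 in WT-A. WT-A 1 and 2 were below all WT-S libraries for this gene and WT-A 4 above them. The supercomplex factor Cox7a2l stayed within 164 to 168 CPM in WT-S and 167 to 180 in WT-A, a difference of 0.06 ± 0.04 (adjusted p = 0.308).

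In complex V, 3 of 16 members fell, of the stator and the central stalk. Atp5f1, the stator subunit b (chr3:105942698-105960099), measured 396, 379, 383 and 365 CPM in WT-S and 345, 323, 247 and 272 in WT-A, a difference of -0.36 ± 0.08 (adjusted p = 0.0103). Without WT-A 3 and WT-A 4, its 2 lowest libraries, the difference was -0.19 (adjusted p = 0.0566). Atp5j, coupling factor F6 of the stator (chr16:84827866-84835625), fell by 0.33 (adjusted p = 0.0189), and Atp5c1, the gamma subunit of the central stalk (chr2:10056016-10080510), by 0.15 (adjusted p = 0.0480). Neither was called without the pair, at -0.16 (adjusted p = 0.104) for Atp5j and -0.15 (adjusted p = 0.0873) for Atp5c1, and with GC offsets Atp5c1 stood at -0.07 (adjusted p = 0.413). The catalytic subunit Atp5b measured 1774, 1787, 1771 and 1765 CPM in WT-S and 1508, 1463, 1672 and 1986 in WT-A, a difference of -0.10 (adjusted p = 0.376). For Atp5b the S libraries were nearly equal, and the A libraries lay on both sides of them. The alpha subunit Atp5a1 ran from 1610 to 1670 CPM in WT-S and from 1341 to 1752 in WT-A, at -0.13 (adjusted p = 0.185), and at -0.24 without the pair (adjusted p = 0.0199).

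The number of called members depended on single libraries. It was 4 without WT-S 2 (8.14% of all genes called in the same fit), 6 without WT-S 3 (11.8%) and 5 without WT-S 4 (10.6%). It was 6 without WT-A 3 (8.27%) and 18 without WT-A 4 (14.6%), and without WT-A 1 it was 15 (32.4%), of which 4 were higher in WT-A. Ndufs1, Sdha, Uqcrc2 and Atp5f1 were called in all 8 fits that left out 1 library. Atp5c1 and Uqcrfs1 were lost in 6 of the 8, Uqcrb in 5, Ndufa5 in 4, Atp5j in 2 and Ndufv2 in 1. A fit to the 2 groups alone called 1 member, Ndufs1, against 3.98% of all genes. DESeq2's Wald test called 16 members, 1 of them higher (22.9% of all genes), and limma voom with sample weights 28, all lower (19.5%). Offsets on GC content gave 12, all lower (15% of all genes), and offsets on transcript length 19, all lower (18.9%).

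The fit to the 14 libraries other than WT-A 3 and WT-A 4 gave a wider set of calls. In it 23 of 79 members (29.1%) were called, all lower, against 10.5% of all genes (5.68% lower), and the median member stood at -0.16. The calls comprised 10 members of complex I, 3 of complex II, 4 of complex III, 1 of complex IV and 5 of complex V. Core subunits joined the list here: Ndufv1 at -0.27 (adjusted p = 0.0252), Sdhb at -0.28 (adjusted p = 0.0199), Uqcrc1 at -0.26 (adjusted p = 0.0103), Cox4i1 at -0.20 (adjusted p = 0.0238) and Atp5b at -0.25 (adjusted p = 0.0143). Shared by the lists from 16 and 14 libraries were 4 members, Ndufs1, Sdha, Uqcrc2 and Uqcrfs1, which is 4 of the 10 in the first list and 4 of the 23 in the second. With 2 libraries left in WT-A, their spread is borrowed from the other groups.

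The 2 lists differed in median transcript GC content, with ranges that overlapped. The 6 members called with 16 libraries only had a median GC content of 48.5% (42% to 56%), the 19 called with 14 libraries only 54.9% (48% to 58.2%), and the 4 called in both 47.6%. In WT-A 3 and 4 relative to WT-S, members under 50% GC stood at a median of -0.12 on the log2 CPM scale, and members over 55% GC at 0.27. In WT-A 1 and 2 the same medians were -0.15 and -0.18, with 73 of 79 members lower. Across the 79 members, Spearman's rho between the difference and GC content was 0.66 for the pair and -0.07 for the other 2 libraries, as a description of points that share these libraries. With transcript length, rho was -0.44 for the pair, -0.34 for WT-A 1 and 2, and -0.04 for TTP-A against TTP-S. The median transcript length was 2243 bases for members called in both lists and 659 for those called in neither. It was 983 for those called with 14 libraries only and 1020.5 with 16 only.

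**Figure D3:**
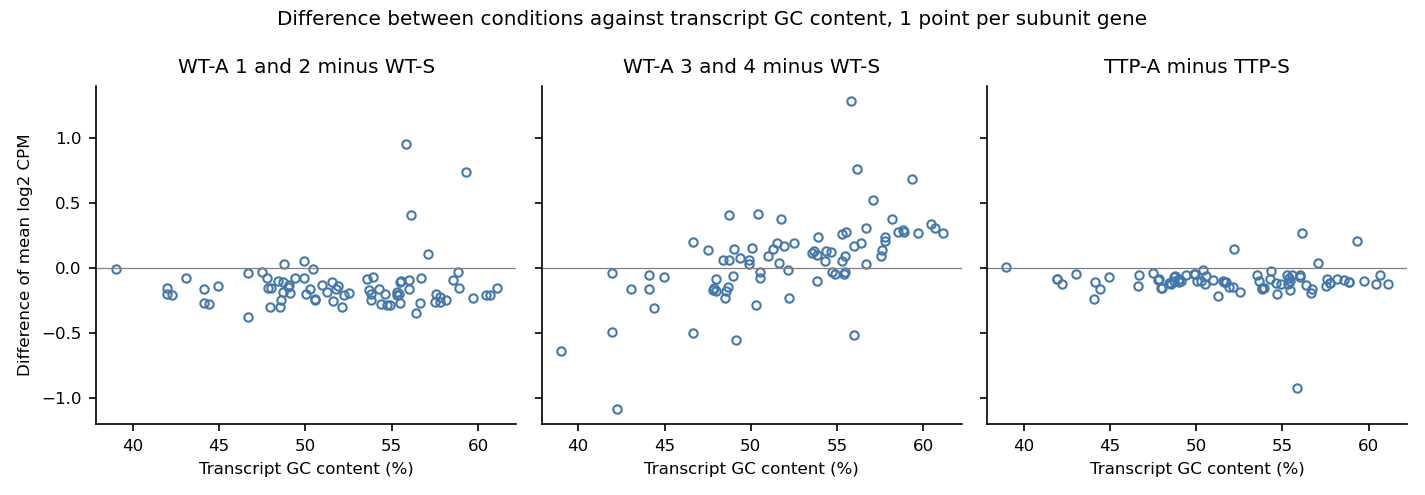
Difference of mean log2 CPM from the S group against transcript GC content in percent, 1 point per member, for WT-A 1 and 2 (left), WT-A 3 and 4 (middle) and TTP-A (right). The middle panel slopes upward, from a median of -0.12 under 50% GC to 0.27 over 55%, whereas most points of the other panels lie just below 0 at all GC contents.

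The direction of these shifts was relative to the scaling. With library totals and no TMM factor, an alternative chosen after the data were seen, the median of all genes moved to 0.16 and that of the members to 0.11. Then 13 members were called, 11 higher and 2 lower (Ndufs1 and Sdha), against 30.8% of all genes. Of all genes called, 4260 were then higher and 482 lower, against 1508 and 1383 with TMM. Relative to the median of all genes, however, the members stood at -0.04 with TMM and -0.05 without, and 50 of 79 lay below that median in both. In the 14 libraries the corresponding distances were both -0.17, with 73 of 79 members below the median of all genes, and with unscaled totals 4 members were called, 3 higher and 1 lower (Ndufs1), against 30.8% of all genes. The sign of a member is therefore read here relative to the other genes of the biopsy.

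The second comparison set the same 2 treatment labels, A and S, side by side in TTPΔARE mice. The members summed to 15030, 14642, 14102 and 14700 CPM in TTP-S and to 12699, 14406, 13945 and 13274 CPM in TTP-A. TTP-A 2 lay within the TTP-S range and the other 3 TTP-A libraries below it. The means were 14619 ± 385 and 13581 ± 749 (SD, n = 4), a log2 ratio of -0.11 (-0.03 with unscaled counts).

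No member was called by edgeR in TTP-A against TTP-S, where 2.9% of all genes were called (1.35% lower). An unadjusted p under 0.05 was found for 8 members, all lower, against 2440 of all 15385 genes. DESeq2's Wald test called 0 (5.62% of all genes) and limma voom with sample weights 17, all lower (15.2% of all genes). The fit without WT-A 3 and WT-A 4, which enter this contrast through the shared spread, called 3, Ndufa3, Ndufb11 and Atp5g2, all lower, against 6.33% of all genes. Across the list, 74 of 79 members lay below 0, with a median of -0.10 against -0.00 for all genes. Values did not overlap for 10 members (13.7% of all genes).

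The medians by complex were alike, at -0.10 in complexes I and II, -0.12 in complex III, -0.09 in complex IV and -0.11 in complex V. Ndufa4 had the lowest adjusted p, at 120, 109, 103 and 112 CPM in TTP-S and 85.5, 109, 94.1 and 89.9 in TTP-A, a difference of -0.23 ± 0.08 (adjusted p = 0.131). TTP-A 2 was the one library inside the range of the S group. Uqcrc2 measured 371, 366, 360 and 373 CPM in TTP-S and 299, 354, 345 and 320 in TTP-A without overlap, at -0.16 ± 0.06 (adjusted p = 0.196). Sdha measured 530, 539, 530 and 518 CPM in TTP-S and 448, 516, 503 and 491 in TTP-A, also without overlap, at -0.11 ± 0.06 (adjusted p = 0.348). Atp5a1 ran from 1649 to 1716 CPM in TTP-S and from 1440 to 1636 in TTP-A, without overlap, at -0.12 ± 0.07 (adjusted p = 0.450). For Ndufa4, Uqcrc2, Sdha and Atp5a1, and for Ndufs1 at -0.13 (adjusted p = 0.287), TTP-A 1 was the lowest of the 4 A libraries. The lowest adjusted p in complex IV was that of Cox7a1, at -0.20 (adjusted p = 0.333), and in complex V that of Atp5o, a stator subunit, at -0.15 (adjusted p = 0.361), both with overlapping groups. For the median member the SE was 0.08, so a difference of the size of the list's median was not detectable for a typical single gene.

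**Figure D4:**
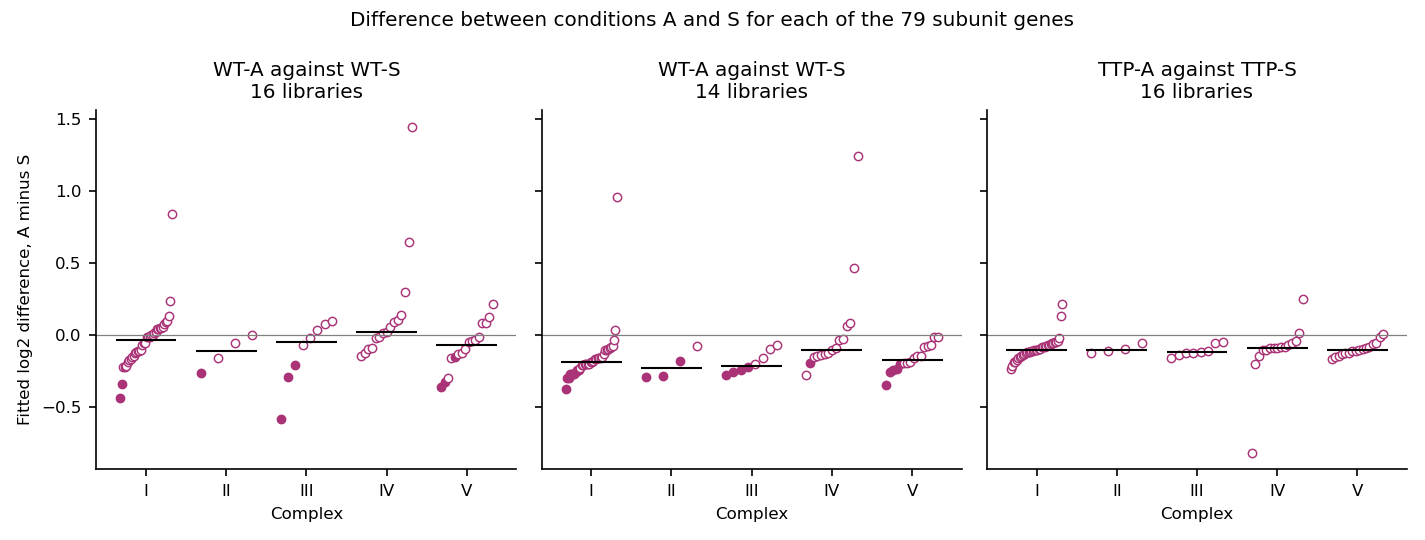
Fitted log2 difference of condition A from condition S for each member, by complex; filled points have an adjusted p under 0.05 and bars are medians. The 16-library WT panel spreads about a median of -0.03 with 10 filled points, the 14-library WT panel lies lower with 23, and the TTP panel is narrow, with 74 of 79 points below 0 and none filled.

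Genotype made little measured difference in condition S. No member was called in TTP-S against WT-S by edgeR, against 0.0325% of all genes. None had an unadjusted p under 0.05, against 1153 of all 15385 genes, and DESeq2 (0.637% of all genes) and limma voom (1.14%) also called 0. By complex, the lowest adjusted p values were 0.864 for Ndufv1 (0.12), 0.978 for Sdha (0.04), 0.905 for Uqcrc2 (0.07), 0.870 for Cox7a1 (0.13) and 0.890 for Atp5g2 (0.11). The median was 0.01, and among the 73 members above 10 CPM the fitted differences ran from -0.09 to 0.13.

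In TTP-A against WT-A, 1 member was called, Ndufs1, against 5.17% of all genes. Ndufs1 measured 159, 181, 181 and 167 CPM in TTP-A, all above the 4 WT-A libraries given earlier, a difference of 0.30 ± 0.06 (adjusted p = 0.0193). Without WT-A 3 and WT-A 4 the difference was 0.23 (adjusted p = 0.0617), and no member was called, against 1.81% of all genes. Sdha (0.19, adjusted p = 0.0573), Uqcrc2 (0.21, adjusted p = 0.0575) and Atp5f1 (0.26, adjusted p = 0.0690) had the lowest adjusted p in their complexes. In complex IV it was that of Cox8b, lower in TTP-A at an adjusted p of 0.143, with 0.40 to 0.65 CPM in WT-A and 2 of the 4 TTP-A libraries at 0. Of the 15 members with an unadjusted p under 0.05 (against 4225 of all 15385 genes), 8 were lower. In complex IV 12 of 15 members lay below 0, with a median of -0.10. Without the pair 6 of the 15 did, and the complex IV median was 0.01. The list's median was -0.03 with all libraries and 0.07 without the pair. The count was 15, of which 7 were higher, without WT-A 1, where 20.8% of all genes were called. It was 3 without WT-A 2 (10.4% of all genes), 0 without WT-A 3 (0.585%) and 2 without WT-A 4 (3.29%). It was 3 without TTP-A 1 (2.68%), 0 without TTP-A 2 (1.74%) and 0 without TTP-A 3 (0.65%). With unscaled totals 9 members were called, 8 of them lower in TTP-A, against 12.5% of all genes.

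Whether the difference of A from S differed between genotypes was tested by the interaction term. No member was called by edgeR, against 0.0585% of all genes, and 6 had an unadjusted p under 0.05, against 2344 of all 15385 genes. DESeq2's Wald test called 1 (1.74% of all genes) and limma voom 0 (1.11%), and edgeR also called 0 without WT-A 3 and WT-A 4. Ndufs1 had the lowest adjusted p, 0.153, with an interaction of 0.30 on the log2 scale. A difference between the genotypes in how the chain differed between A and S was therefore not shown, although the called members differ between the 2 comparisons.

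Other genes of the same pathways were read from lists chosen with earlier results known. The tricarboxylic acid cycle and pyruvate dehydrogenase feed the chain with NADH and succinate. All 16 of these genes lay below 0 in WT-A against WT-S, with a median of -0.21. There 7 were called, all lower, against 18.8% of all genes (8.99% lower). In the 14 libraries 13 were called, all lower, against 10.5% of all genes (5.68% lower). Dld, the shared lipoamide dehydrogenase, fell by 0.58 (adjusted p = 0.0100), from 209 ± 10.9 CPM in WT-S to 140 ± 37.3 in WT-A. Sucla2, a succinyl-CoA ligase subunit, fell by 0.47 (adjusted p = 0.00311), and the pyruvate dehydrogenase subunit Pdhb fell by 0.33 (adjusted p = 0.00121). Without the pair WT-A 3 and WT-A 4 these 3 genes stood at -0.29, -0.30 and -0.31, all called. In TTP-A against TTP-S all 16 were again below 0, with a median of -0.13. EdgeR called 0 of them, against 2.9% of all genes, and 2 in the 14 libraries, all lower, against 6.33%. An unadjusted p under 0.05 was found for 3 of the 16 with 16 libraries, against 2440 of all 15385 genes. In TTP-A against WT-A 5 of the 16 were called, all higher, and 3 in the 14 libraries, against 5.17% and 1.81% of all genes. Parietal markers had 4 of 12 higher in that contrast (3 in the 14 libraries) and chief cell markers 2 of 5 higher (3 in the 14 libraries). Smooth muscle markers had 4 of 8 lower and the cytosolic ribosome 26 of 78 lower, but 0 and 4 in the 14 libraries.

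In WT-A against WT-S, the counts that follow stand beside 18.8% of all genes called and 8.99% called lower, and in the 14 libraries beside 10.5% and 5.68%. Of 7 measured chain genes and close partners with other symbols, 3 fell in WT-A: Ndufab1, the acyl carrier protein of complex I (-0.30, adjusted p = 0.0170), the ATP synthase subunit gene Usmg5 (-0.36, adjusted p = 0.0318) and 2010107E04Rik, another small ATP synthase subunit gene (-0.22, adjusted p = 0.0282). Cyc1, cytochrome c1 of complex III, stood at 0.00 (adjusted p = 0.985). None of those 3 was called in the 14 libraries, where Cyc1 was the 1 gene of the 7 called (-0.23, adjusted p = 0.0169). Complex I assembly factors had 3 of 16 lower (18.8%), among them Ndufaf4 (-0.85, adjusted p = 0.0318, and -0.30 in the 14 libraries, adjusted p = 0.0144). Assembly factors of complexes II to V had 3 higher and 4 lower of 33 (21.2% called), a share near that of all genes, with Surf1, a complex IV factor, at 0.18 (adjusted p = 0.0217) and Lrpprc, which stabilises mitochondrial messenger RNA, at -0.29 (adjusted p = 0.00515). In the 14 libraries these 2 assembly lists had 2 and 3 called, all lower, and Surf1 was not called (0.12, adjusted p = 0.125).

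Carriers and pores of the mitochondrial membranes had 2 of 16 lower (12.5%), with a median of -0.11 (8, or 50%, called in the 14 libraries), including the adenine nucleotide carrier Slc25a5, which fell by 0.26 (adjusted p = 0.0131). Of 16 regulators of mitochondrial biogenesis, 2 (12.5%) fell, a share between those of all genes called lower and called in either direction: Esrrg, an estrogen-related receptor that drives oxidative genes, from 359 ± 21.9 to 250 ± 39.4 CPM (-0.53 ± 0.09, adjusted p = 0.00305), and Ppara (-0.40, adjusted p = 0.0167). In the 14 libraries Esrrg stood at -0.37 (adjusted p = 0.00776) and Ppara at -0.33 (adjusted p = 0.0969). The coactivator Ppargc1a stood at -0.52 (adjusted p = 0.0640), and Nrf1 at 0.11 (adjusted p = 0.218). Over the 16 regulators the median was -0.09, with 6 above 0 and 10 below. In the 14 libraries it was 0.002, with 8 above 0 and 8 below. Proteins of the mitochondrial ribosome had 3 of 78 lower with a median of -0.02. The cytosolic ribosome had 22 of 78 higher and 1 lower with a median of 0.14, but 2 higher and 1 lower in the 14 libraries.

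Cell type markers moved alongside. Of 12 parietal cell markers 7 were called lower in WT-A than in WT-S and none higher, with a median of -0.32 (8 lower, median -0.44, in the 14 libraries), and all were detected. Their summed level ran from 21396 to 25433 CPM in WT-S and from 17501 to 25512 in WT-A. It ran from 23318 to 24673 in TTP-S and from 19462 to 23198 in TTP-A. The parietal proton pump subunits Atp4a and Atp4b stood at -0.18 (adjusted p = 0.215) and -0.26 (adjusted p = 0.160), and were called in the 14 libraries at -0.36 (adjusted p = 0.0259) and -0.54 (adjusted p = 0.00395). In TTP-A against TTP-S all 12 parietal markers were below 0, with a median of -0.15. EdgeR called 0 of them, also in the 14 libraries, against 2.9% and 6.33% of all genes. An unadjusted p under 0.05 was found for 4, against 2440 of all 15385 genes.

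Of 5 chief cell markers, which mark the pepsinogen-secreting cells, 3 were lower in WT-A and 1 higher, with a median of -0.68 (4 lower and 1 higher in the 14 libraries, median -0.998). Their sum ran from 78541 to 153339 CPM in WT-S and from 48966 to 103676 in WT-A, and from 127189 to 134271 in TTP-S and 93785 to 143658 in TTP-A. In TTP-A against TTP-S 1 of the 5 chief cell markers was called higher and 0 lower, with a median of -0.05. The 14 libraries gave the same counts, against 2.9% and 6.33% of all genes called. Endocrine markers had 2 of 5 lower in WT-A, with a median of -0.53 (3 in the 14 libraries), at sums of 2255 to 3351 CPM in WT-S and 1784 to 3096 in WT-A. Of the 5 genes listed here as mucous neck markers, 1 was called higher in WT-A (Cd44, median 0.76, also 1 in the 14 libraries). Which cells expressed Cd44 was not tested. In TTP-A against TTP-S 1 of the 5 was called higher (Muc6, median 0.66), and 1 in the 14 libraries as well, against 2.9% and 6.33% of all genes. The sums of these 5 genes were 3197, 928, 1077 and 1496 CPM in WT-S, with WT-S 1 the highest, and 2106 to 2693 in WT-A. They were 873 to 1168 in TTP-S and 1334 to 4002 in TTP-A. The mean sums were 1675 CPM in WT-S and 2439 in WT-A, and 1064 in TTP-S and 2401 in TTP-A. The groups with the SPEM label thus had the lower means. Surface mucous markers had none of 4 called in WT-A (median -0.33) and 1 lower in the 14 libraries. In WT-A 3 of the 4 had an unadjusted p under 0.05, against 5620 of all 15385 genes. In TTP-A against TTP-S the same 4 markers did not overlap between groups (13.7% of all genes did not), with a median of -0.54. There 1 was called, Muc5ac, and 2 in the 14 libraries, all lower, against 2.9% and 6.33% of all genes. The sum of the 4 markers was 55825 to 60065 CPM in TTP-S and 29815 to 52891 in TTP-A.

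Smooth muscle markers had 5 of 8 higher in WT-A, with a median of 0.36, but 1 of 8 in the 14 libraries (median 0.26). Their sum was 7024 to 7938 CPM in WT-S and 8248 to 9982 in WT-A, and 6119 to 8573 in TTP-S and 6660 to 7972 in TTP-A. Striated muscle markers had 3 of 7 tested genes higher in WT-A and none in the 14 libraries, and Myh4 was at 0 in all libraries. Macrophage markers had 3 of 7 higher in WT-A and 1 in the 14 libraries, with sums of 109 to 140 CPM in WT-S and 130 to 203 in WT-A. T cell markers had 1 of 4 tested genes higher in WT-A (Cd2) and none in the 14 libraries, with sums of 3.92 to 5.32 CPM in WT-S and 3.93 to 8.07 in WT-A. The 1 neutrophil gene tested, Retnlg, was called higher in WT-A, also in the 14 libraries, at group means of 0.113 CPM in WT-S and 1.04 in WT-A, the first under the level that a count of 0 allows. The 1 eosinophil gene tested, Siglecf, was called higher in TTP-A than in TTP-S (1.22), also in the 14 libraries, against 2.9% and 6.33% of all genes. The eosinophil sums were 2.16 to 3.11 CPM in TTP-S and 4.15 to 7.82 in TTP-A, with Epx at 0 in all libraries. Adipocyte markers had 1 of 8 tested genes called higher in WT-A, and 1 in the 14 libraries as well. Their WT median was 0.10, with 8 of 8 above 0, but -0.43 in the 14 libraries, with 2 above 0 and 6 below. In TTP-A against TTP-S 2 were called lower, and 3 in the 14 libraries, against 2.9% and 6.33% of all genes. In that contrast the median was -0.74, with sums of 222 to 354 CPM in TTP-S and 128 to 189 in TTP-A. Markers of squamous forestomach epithelium had 2 of 11 tested genes higher in WT-A (3 in the 14 libraries), with sums of 1.70 to 260 CPM in WT-S and 53.7 to 1125 in WT-A. For TTP-S the sums were 29.6 to 528 CPM and for TTP-A 3.36 to 286. The part of these cell types in the member values was not tested.

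**Figure D5:**
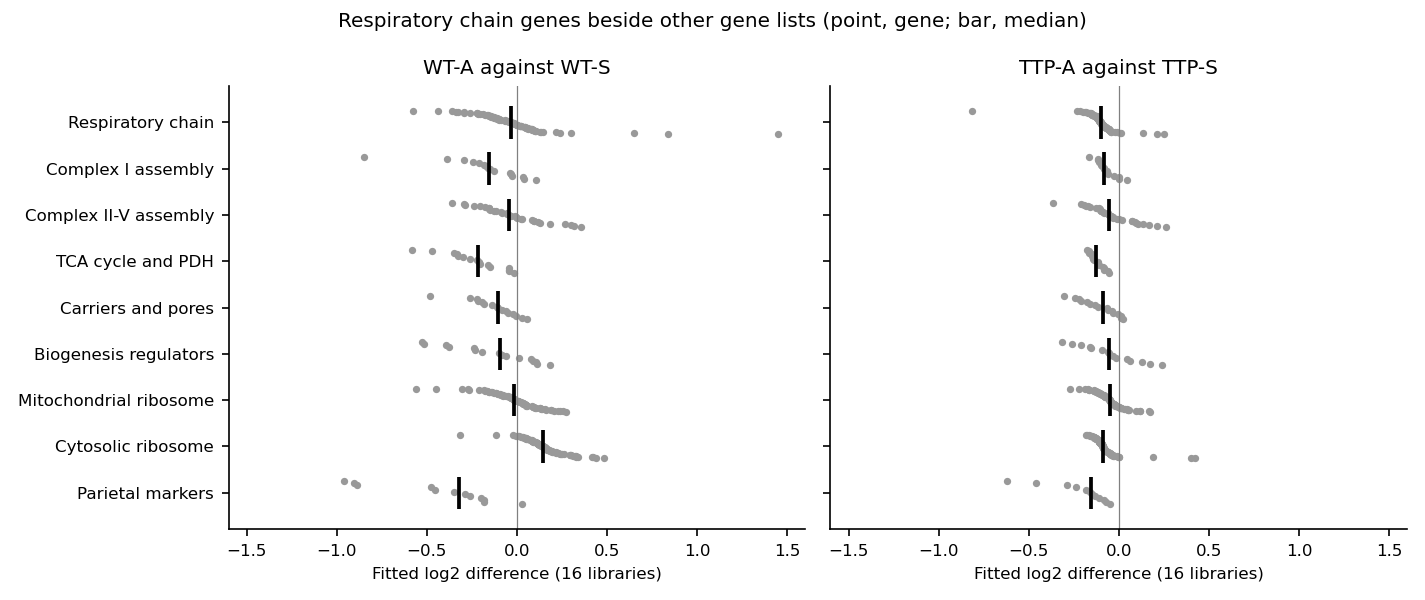
Fitted log2 differences from the 16-library fit for the respiratory chain and for lists of related genes and parietal markers, 1 point per gene, with the median as a bar. In WT the tricarboxylic acid cycle (-0.21) and parietal markers (-0.32) lie further below 0 than the chain (-0.03) and the cytosolic ribosome lies above (0.14), whereas in TTP every listed median lies between -0.15 and -0.05.

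Because the TTP protein binds AU-rich elements, the reference transcripts of the members were searched for the nonamer TTATTTATT on the transcript strand. It occurred in 2 of 79 members (2.53%), Ndufv2 and Sdhc, and in 7.21% of 14433 other tested genes. Members have short transcripts, with a median of 758 bases against 2774 for all genes. Among transcripts of up to 1000 bases it occurred in 0 of 52 members and in 9 of 878 other genes (1.03%). In TTP-S against WT-S, Ndufv2 stood at -0.03 (adjusted p = 0.998) and Sdhc at 0.01 (adjusted p = 0.998).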

How the data were processed

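RNA from 16 mouse stomach biopsies was sequenced from TruSeq libraries, per the labels' protocols. The authors deposited 1 table of raw read counts with a row per gene symbol. STAR 2.7.0f, featureCounts, Subread 1.6.4, DESeq2 and the build mm10 are named in the submitters' processing notes. The annotation, strand setting and handling of reads with several matches are not given in the sources used here. No molecular identifiers were used in these counts, so the limits set by a count of 0 cover counting error only.

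Sample titles gave the groups and replicate numbers. The deposited counts were tested by edgeR 4.0.16 (R 4.3.3): filterByExpr kept 15385 genes, libraries were TMM-scaled, a quasi-likelihood model with 4 group means was fitted to 16 libraries, and p-values were adjusted by Benjamini-Hochberg over all genes tested in each of 5 contrasts. Called means an adjusted p under 0.05. Each SE was derived from the log2 difference and its F statistic. GC checks used log2 CPM with a prior count of 2. Lengths, GC content, shared 50-base words and gene coordinates came from 1 transcript per gene of GENCODE M21 (GRCm38), matched by symbol for 24416 and by synonym for 95 of 24964 genes, and promoters from RefSeq. Scripts were tested on simulated data.

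The members and lists were chosen with earlier results of these data known. The genes named with values are core subunits (1 of them is not reported here), the isoform pairs, the called members, and otherwise the member with the lowest adjusted p in each complex. Sdhb, Sdhc and Sdhd complete complex II. Genes named from the other lists, Ndufa3, Ndufb11, Atp5g2, Cox6b2 and the promoters printed were chosen after their values were seen. Alternatives were DESeq2 1.42.0 size factors and Wald test, limma 3.58.1 voom, other filters, 2-group fits, a replicate block, GC and length offsets, omitted libraries and unscaled totals.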

Additional observations from a re-analysis of the deposited data

Results flagged for a closer look

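In groups of 4 libraries, a single value was marked when its gap to the nearest other value, relative to the group's whole range, exceeded Dixon's 95% critical value. Of 180 such groups checked, 6 were marked, and chance marks about 1 in 20. In WT-A 4, Cox7b measured 163 CPM, Cox8b 0.65 CPM and Ndufa4 105 CPM, each the highest of its group. In WT-A 3, Cox6c was the lowest of its group at 168 CPM. In WT-S 2, Cox6c was the highest of its group at 196 CPM. In TTP-S 1, Atp5c1 was the highest of its group at 331 CPM. Of the 6 values, 4 lie in the pair WT-A 3 and WT-A 4. By edgeR no member had a genotype by treatment interaction with an adjusted p under 0.05, and DESeq2's Wald test called 1.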

How the results depend on the processing

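The counts of called members in the report were 10 in WT-A against WT-S, 0 in TTP-A against TTP-S, 1 in TTP-A against WT-A and 0 for the interaction. For WT-A against WT-S the count became 16 with DESeq2's Wald test (22.9% of all genes called), 28 with voom (19.5%), 1 with the 2 groups alone (3.98%), 19 with length offsets (18.9%), 23 in 14 libraries (10.5%), 4 in 14 libraries without TMM (30.8%), and 4 to 18 leaving out 1 library. For TTP-A against TTP-S it became 17 with voom (15.2%), 1 with 2 groups (7.36%), 3 in 14 libraries (6.33%) and 0 to 1 leaving out 1 library. For TTP-A against WT-A it became 5 with the Wald test (10.6%), 3 with voom (5.17%), 0 with 2 groups (0.0065%), in 14 libraries (1.81%) and with GC offsets (3.89%), 2 with length offsets (4.56%), 9 without TMM (12.5%), 2 in 14 libraries without TMM (9.28%), and 0 to 15 leaving out 1 library. The interaction had 1 call with the Wald test, and TTP-S against WT-S had 0 in all fits. Without TMM the median became 0.11 in WT-A against WT-S and -0.030 in TTP-A against TTP-S, also in 14 libraries (-0.030). The summed level became 13986 CPM in WT-S and 13977 in TTP-S. With GC offsets Ndufv2 moved to 0.0058 in WT-A against WT-S. In 14 libraries without TMM, Atp5j (0.022), Ndufa5 (0.028) and Atp5c1 (0.036) turned. Beyond the change in scaling and in the number of samples, the causes were not tested.

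With a replicate block, 8 members were called in WT-A against WT-S (18.5% of all genes), 1 in TTP-A against WT-A (4.06%) and 0 in the other contrasts. The numbers did not pair the libraries: deviations of same-numbered libraries correlated from -0.43 to 0.44 over 24 pairs, and the best match had a library's own number in 8 of 48 cases. Depth limits the isoforms under 1 CPM, such as Cox8b.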
